A study of Mus musculus with 7 samples.

Results

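Crx, Nrl, Nr2e3, Otx2, Thrb, Rorb, Rxrg, Neurod1, Mef2d and Prdm1 encode the transcription factors that set and keep the identity of rods and cones, the light-sensing cells of the retina. These 10 genes were taken by symbol from the 54532 rows of a gene count table, each symbol had a single row, and all 10 passed the filter on low counts that left 17078 genes for testing. The table holds 7 libraries of poly-A RNA from mouse retina on day 28 of an infusion, 4 from mice given angiotensin II (Ang II, a peptide hormone that constricts vessels and raises blood pressure) and 3 from mice given saline. The series text describes all the mice as ApoE-/-, which lack apolipoprotein E, whereas the genotype entry of every library reads WT. Counts of Apoe were 253 to 406 for the Ang II libraries and 150 to 304 for the saline ones, so the transcript was detected in both groups. The sources used here do not give age, sex, dose or the number of animals behind a library, and p-values therefore measure the spread between these libraries, which may be technical.

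Photoreceptor fate is built in steps. OTX2 commits a dividing precursor to the photoreceptor lineage and turns on CRX, a related homeodomain protein that activates most rod and cone genes. RORB acts upstream of NRL, the leucine zipper factor without which rods take on a cone-like fate, and NRL in turn drives NR2E3, a nuclear receptor that keeps cone genes off in rods. THRB (thyroid hormone receptor beta) and RXRG act in cones, where they set the choice of opsin. PRDM1 holds back bipolar cell genes in young photoreceptors, MEF2D binds regulatory DNA together with CRX, and NEUROD1 supports photoreceptor survival. Most of these genes stay on in the adult. Several are also expressed outside photoreceptors, Otx2 in bipolar cells and in the pigment epithelium, and Neurod1 and Rorb in some amacrine cells.

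The starts of 4 genes are shown because the results below turn on them: Crx and Nrl had the most alike profiles among the 10 genes over the 7 libraries, and Rorb and Nr2e3 the most opposed. Each line gives the 250 bases before the RefSeq transcription start (GRCm38.p6), 5′ to 3′ on the strand of the gene, which is the minus strand for all of them. They lie at chr7:15879956-15880205 for Crx, chr14:55524253-55524502 for Nrl, chr19:19111197-19111446 for the outer of the starts of Rorb and chr9:59950080-59950329 for Nr2e3. Capitals mark exact matches, on either strand, to TAATCC (the core bound by OTX2 and CRX), AGGTCA (the hexamer bound by nuclear receptors), TGCTGA (bound by NRL and other MAF proteins) or CAGATG (an E-box bound by NEUROD1), and none of these matches overlaps another.
Crx: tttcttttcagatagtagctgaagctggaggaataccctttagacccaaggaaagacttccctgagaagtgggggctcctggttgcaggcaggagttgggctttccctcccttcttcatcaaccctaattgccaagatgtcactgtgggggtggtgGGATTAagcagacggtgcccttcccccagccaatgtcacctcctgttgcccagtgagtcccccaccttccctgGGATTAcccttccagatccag
Nrl: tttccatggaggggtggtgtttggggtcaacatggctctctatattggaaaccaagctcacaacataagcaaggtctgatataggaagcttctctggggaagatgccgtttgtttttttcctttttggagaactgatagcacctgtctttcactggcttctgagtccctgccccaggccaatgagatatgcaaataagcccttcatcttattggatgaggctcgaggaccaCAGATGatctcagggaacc
Rorb: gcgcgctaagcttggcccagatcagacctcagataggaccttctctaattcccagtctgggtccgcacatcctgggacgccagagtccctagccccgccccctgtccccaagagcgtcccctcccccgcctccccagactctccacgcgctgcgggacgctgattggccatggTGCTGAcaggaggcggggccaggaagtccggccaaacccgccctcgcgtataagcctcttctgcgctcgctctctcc
Nr2e3: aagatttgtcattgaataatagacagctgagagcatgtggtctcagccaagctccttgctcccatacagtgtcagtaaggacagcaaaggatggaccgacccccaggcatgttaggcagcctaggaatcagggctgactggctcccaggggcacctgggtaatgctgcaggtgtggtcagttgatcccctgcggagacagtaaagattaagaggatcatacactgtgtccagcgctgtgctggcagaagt

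The Crx window holds TAATCC 2 times, read as GGATTA on the strand shown. The Nrl window holds 1 CAGATG, the Rorb window 1 TGCTGA, and the Nr2e3 window has 0 matches to the 4 motifs. RefSeq lists 16 starts for the 10 genes, of which 3 have a TAATCC, 2 an AGGTCA, 4 a TGCTGA and 2 a CAGATG in this window. Over all 32851 windows of the same length in the table, 6.25% hold TAATCC, 14.0% AGGTCA, 16.1% TGCTGA and 14.4% CAGATG. A match is a string of letters and not a measured binding site.

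Total counts per library ran from 14655431 to 17563493, which put the counts of the 10 genes between 114 (Prdm1 in saline replicate 2) and 36408 (Nrl in saline replicate 3). Levels are given as CPM, counts scaled to a common library size after normalization of the libraries by TMM. The factors are ranked by level only after division by exon length. Pairs of libraries differed by far more than sampling noise (over genes, chi-square divided by its degrees of freedom was 9.21 to 23.0). Each was counted as a replicate, although this statistic does not tell whether the libraries come from separate animals. Saline replicate 3 stood apart for Rorb and Nr2e3. The log2 fold changes of Rorb, Nr2e3 and Neurod1 are given with and without it, while correlations between profiles are given only over all 7 libraries. Markers of the pigment epithelium also differed between libraries: their summed level was 1630 to 2409 CPM in Ang II, 620 and 610 CPM in saline replicates 1 and 2, and 1515 CPM in saline replicate 3.

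Per kilobase of exon, Crx was the most abundant of the factors, at 395 ± 41.3 CPM per kilobase (SD, n = 7). Nrl followed with 345 ± 33.8 and Nr2e3 with 215 ± 48.6. Crx lay above Nrl, and Nrl above Nr2e3, within every one of the 7 libraries, although the ranges of these neighbours over libraries overlapped. Neurod1 (109 ± 14.9) and Mef2d (105 ± 7.39) did not differ beyond their spread, Neurod1 being the higher in 4 of 7 libraries. Below them came Otx2 (57.5 ± 3.35), Rorb (27.1 ± 7.34), Thrb (12.2 ± 0.614), Rxrg (4.29 ± 0.545) and Prdm1 (2.01 ± 0.451), each above the next in all 7 libraries with no overlap of their ranges. The rod factors thus stood far above the cone factors Thrb and Rxrg in this whole-retina RNA.

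**Figure D1:**
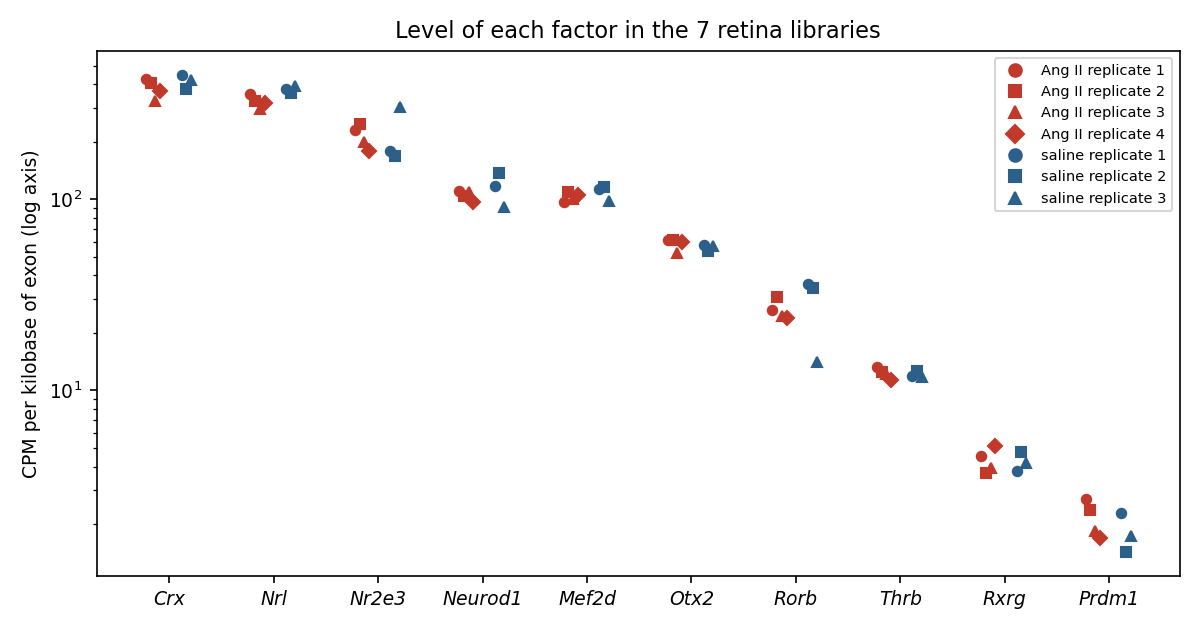
Level of each factor as CPM per kilobase of exon (log axis), with 1 point per library, Ang II in red and saline in blue and a marker shape per replicate number. Crx averages 395 and Prdm1 2.01, and the low saline point of Rorb and the high saline point of Nr2e3 both come from saline replicate 3.

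The comparison of Ang II with saline asks whether the infusion alters the retinal transcriptome, and here whether it touches this regulatory layer. None of the 10 factors passed the test: edgeR's quasi-likelihood test called 0 of 10 at an adjusted p under 0.05, against 0% of all 17078 tested genes (smallest adjusted p 0.226), where 789 genes had an unadjusted p under 0.05. DESeq2 and limma-voom, which called 35 and 114 genes in all, also called 0 of the 10. Of the 10 factors, 6 had a log2 fold change (Ang II over saline) below 0 and 4 above, with a median of -0.05 where the median of all tested genes was 0.00 (-0.0048). For 9 of 10 the groups overlapped, and the exception was Nrl. None of the 10 had every Ang II library above every saline library, as 3.18% of all tested genes did. In whole tissue, a lower level from fewer cells of a type cannot be told apart from less RNA per cell.

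**Figure D2:**
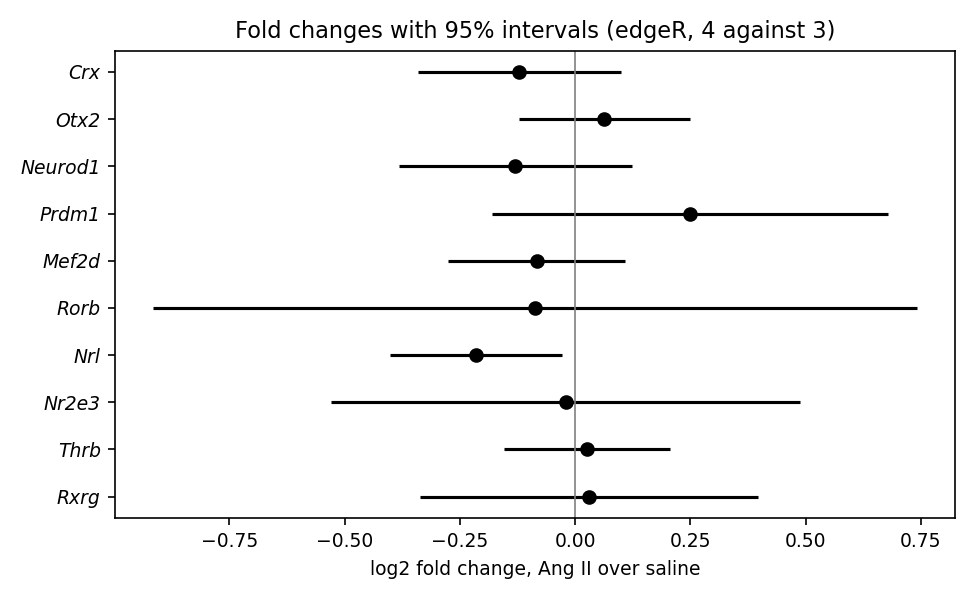
Log2 fold change of each factor, Ang II over saline, with its 95% interval from the edgeR fit of 4 against 3 libraries. The interval of Nrl, from -0.40 to -0.03, is the single one that does not include 0, before any adjustment for the 17078 genes tested, and that of Rorb is the widest.

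Nrl, the factor that sets rod fate, was at 2015, 1847, 1690 and 1805 CPM in Ang II replicates 1 to 4. The saline replicates, 1 to 3, had 2144, 2033 and 2225 CPM. Every Ang II library lay below every saline library, as in 2.73% of all tested genes. The Ang II mean was 1839 ± 135 CPM (SD, n = 4) and the saline mean 2134 ± 96.4 CPM (SD, n = 3). This is a log2 fold change of -0.21 ± 0.09 (SE), or 0.862-fold with a 95% interval of 0.757 to 0.981. The edgeR p was 0.0269 before adjustment, a level reached on the lower side by 1.72% of the genes, and 0.982 after it. An exact two-sided permutation test of log2 CPM over the 35 arrangements of the libraries gave p = 0.0571, where 0.0286 is the smallest this design allows. The log2 fold change stayed between -0.26 and -0.17 when each library was left out in turn. In these fits the edgeR p before adjustment ran from 0.0148 (without Ang II replicate 1) to 0.0899 (without saline replicate 3). Of the pigment epithelium markers 15 of 16 lay above 0. At an unadjusted edgeR p under 0.05 there were 5 on the higher side, against 496 of all 17078 tested genes. For 8 of the 16 every Ang II library lay above every saline library, as in 3.18% of all tested genes. For these markers edgeR called 0 of 16, and 0 of 16 were without counts. With their mean level as a covariate Nrl was at -0.29. That mean log2 CPM was 4.10 to 4.78 in Ang II, 2.95 and 2.62 in saline replicates 1 and 2, and 4.27 in saline replicate 3. The covariate thus largely followed the group, and values with it, here and below, lean on saline replicate 3.

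Crx, which activates genes of rods and cones alike, was at 1344, 1282, 1031 and 1161 CPM with Ang II, against 1416, 1190 and 1323 CPM with saline. Ang II replicate 3 had the lowest value and saline replicate 1 the highest, and the groups overlapped. The log2 fold change was -0.12 ± 0.10 (edgeR adjusted p = 0.982), with a 95% interval of 0.789 to 1.07 in fold. Among the 10 factors, the profile of Nrl over the 7 libraries was the closest to that of Crx (Pearson r = 0.811 of log2 CPM, as a description). The ratio of the CPM of Nrl to that of Crx ran from 1.44 to 1.64 in Ang II and from 1.51 to 1.71 in saline. Over all genes of at least 5 CPM, those most like Nrl were Tmsb4x (r = 0.974) and Rax (r = 0.967), and those most like Crx were Pus7 (r = 0.983) and Gal3st3 (r = 0.974), likewise over 7 libraries.

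Otx2, which starts the lineage, was at 259, 257, 222 and 251 CPM with Ang II, against 242, 228 and 241 CPM with saline. Its spread was among the smallest of the factors, with a coefficient of variation of 6.96% in Ang II and 3.34% in saline where counting error alone gives about 1.59%. The log2 fold change was 0.06 ± 0.09 (edgeR adjusted p = 0.983), with a 95% interval of 0.918 to 1.19 in fold. The pigment epithelium also expresses Otx2. The median log2 fold change of that tissue's markers, among them Tyr, the tyrosinase gene (1.90 ± 0.34), was 1.36, where that of Otx2 was 0.06. How much of the Otx2 signal came from that tissue was not tested.

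Rorb, the nuclear receptor upstream of Nrl, had the widest spread of the factors. It was at 292, 340, 271 and 266 CPM with Ang II, against 397, 378 and 156 CPM in saline replicates 1 to 3. Saline replicates 1 and 2 were thus the highest of the 7 libraries and saline replicate 3 the lowest, a 2.54-fold range against a counting error of about 1.44%. The log2 fold change was -0.09 ± 0.33 (edgeR adjusted p = 0.992). Its 95% interval of 0.531 to 1.67 in fold allows a change of sizeable extent in either direction. Without saline replicate 3 the log2 fold change was -0.40, with an edgeR p of 0.00189 before and 0.171 after adjustment, in a fit that called 117 genes in all. Without saline replicate 1 it was 0.13. Without saline replicate 2 it was 0.08 (0.0772), and adding the pigment epithelium score as a covariate gave 0.86. The within-group SD of Rorb on the log2 scale was larger than that of 98.0% of the 12092 tested genes with at least 5 CPM.

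Nr2e3, which keeps cone genes off in rods, varied in the opposite sense between saline replicate 3 and saline replicates 1 and 2. Within the 4 Ang II libraries Nr2e3 had the same order as Rorb. It was at 778, 829, 668 and 604 CPM with Ang II, against 603, 565 and 1022 CPM in saline replicates 1 to 3. Saline replicates 1 and 2 were the lowest of the 7 libraries and saline replicate 3 the highest. The log2 fold change was -0.02 ± 0.22 (edgeR adjusted p = 0.996, 95% interval 0.693 to 1.40 in fold). It was 0.31 without saline replicate 3 (edgeR adjusted p = 0.534) and -0.65 with the pigment epithelium covariate. Its within-group spread exceeded that of 92.6% of the genes with at least 5 CPM. The ratio of the CPM of Nr2e3 to that of Rorb was 2.27 to 2.67 in the 4 Ang II libraries, 1.52 and 1.49 in saline replicates 1 and 2, and 6.53 in saline replicate 3. The Pearson r between Nr2e3 and Rorb over the 7 libraries was -0.732, the lowest of any pair among the 10 factors, as a description.

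Of all genes with at least 5 CPM, the profile most like that of Rorb was that of Esrrb, which encodes an orphan nuclear receptor of rods (r = 0.996 over 7 libraries). Esrrb was at 671, 736, 570 and 594 CPM with Ang II, against 903, 845 and 306 CPM with saline, so it had the same order of saline libraries as Rorb. The next was the kinase gene Wnk1 (r = 0.979). The profiles most like that of Nr2e3 were those of Pdhx (r = 0.988), a component of the pyruvate dehydrogenase complex, and Iars (r = 0.976), an aminoacyl-tRNA synthetase. Samd7, a silencing cofactor of photoreceptors that was singled out after its values were seen, was at 321, 341, 296 and 141 CPM with Ang II, against 206, 152 and 277 CPM with saline. Its highest saline value was in saline replicate 3, as for Nr2e3, although 3 of the 4 Ang II libraries lay above it. Clock genes, several of which cycle in photoreceptors, had a summed level of 1723 to 1858 CPM in Ang II and of 1869, 1905 and 1932 CPM in saline replicates 1 to 3, and immediate early genes one of 214 to 284 CPM and 270 to 698 CPM.

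**Figure D3:**
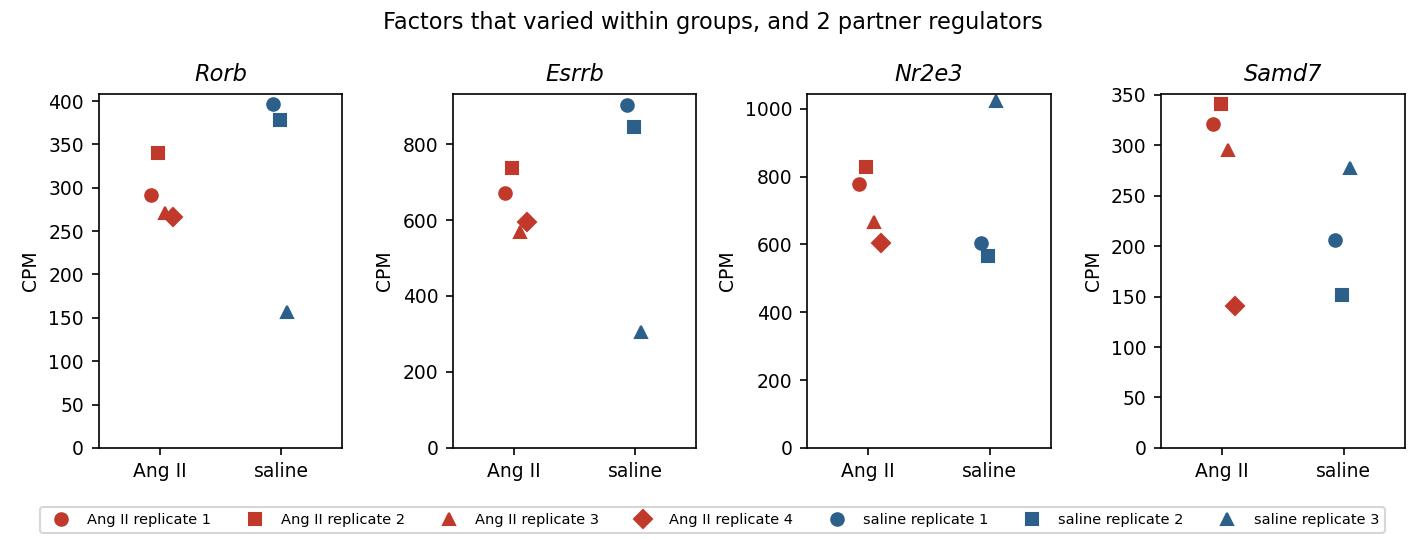
CPM of Rorb, Esrrb, Nr2e3 and Samd7 in each library (linear axes from 0), Ang II in red and saline in blue with a marker shape per replicate number. Saline replicate 3 (blue triangle) is lowest for Rorb (156 CPM) and Esrrb (306 CPM) and highest for Nr2e3 (1022 CPM).

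The cone factors had log2 fold changes close to 0. Thrb, whose product is needed for M opsin, was at 98.2, 92.7, 90.0 and 84.4 CPM with Ang II, against 88.3, 93.4 and 87.4 CPM with saline. Its log2 fold change was 0.03 ± 0.08 (edgeR adjusted p = 0.990), with a 95% interval of 0.898 to 1.15 in fold. Its within-group spread was below that of most genes, larger than that of 8.28% of those with at least 5 CPM. Rxrg, the partner of THRB, was low, at 10.5, 8.49, 8.98 and 11.8 CPM with Ang II, against 8.73, 10.9 and 9.60 CPM with saline. The log2 fold change was 0.03 ± 0.17 (edgeR adjusted p = 0.995, 95% interval 0.792 to 1.32 in fold), and counting error alone gives Rxrg a coefficient of variation of about 7.92%.

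Neurod1 was at 300, 284, 298 and 265 CPM with Ang II, against 319, 374 and 249 CPM with saline. The saline libraries held both its highest and its lowest value, as for Rorb, which was the factor most like it (r = 0.789). The log2 fold change was -0.13 ± 0.12 (edgeR adjusted p = 0.982), and 0.01 without saline replicate 2. Without saline replicate 3 it was -0.27, with an edgeR p of 0.0181 before and 0.518 after adjustment. Mef2d was steadier, at 579, 651, 599 and 628 CPM in Ang II and 673, 694 and 587 CPM in saline, with a log2 fold change of -0.08 ± 0.09 (edgeR adjusted p = 0.982). Prdm1 was the scarcest factor per length, at 15.1, 13.3, 10.3 and 9.47 CPM in Ang II and 12.7, 7.99 and 9.66 CPM in saline. Its log2 fold change of 0.25 ± 0.20 (edgeR adjusted p = 0.982) had a 95% interval of 0.883 to 1.60 in fold. It was 0.11 without saline replicate 2 and 0.45 without saline replicate 1. Lymphocytes also express Prdm1, and 6 of 10 lymphoid markers were too low to be tested. The 4 tested averaged 66.3 (Xbp1), 12.3 (Jchain), 0.717 (Cd8a) and 0.680 CPM (Ighm), where Prdm1 averaged 11.2 CPM. How much of the Prdm1 signal came from lymphocytes was not tested.

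The profiles most like those of the other factors over the 7 libraries, again among genes of at least 5 CPM and as a description, were as follows. Otx2 was closest to Plagl1 (r = 0.990) and Snx5 (r = 0.960), and among the 10 factors to Prdm1 (r = 0.666). Neurod1 was closest to Zfp653 (r = 0.995) and 1110059E24Rik (r = 0.987), and Mef2d to D630045J12Rik (r = 0.978) and H2-T24 (r = 0.970), with Rorb its nearest factor (r = 0.750). Thrb was closest to Mcm8 (r = 0.987) and Sec22a (r = 0.967), with Neurod1 its nearest factor (r = 0.493). Rxrg was closest to Prmt6 (r = 0.960) and Slc37a3 (r = 0.956) and to no other factor above r = 0.0938 (Otx2), and Prdm1 to Acad11 (r = 0.950) and Zranb3 (r = 0.948). Each is the best of up to 12092 profiles over 7 points.

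**Figure D4:**
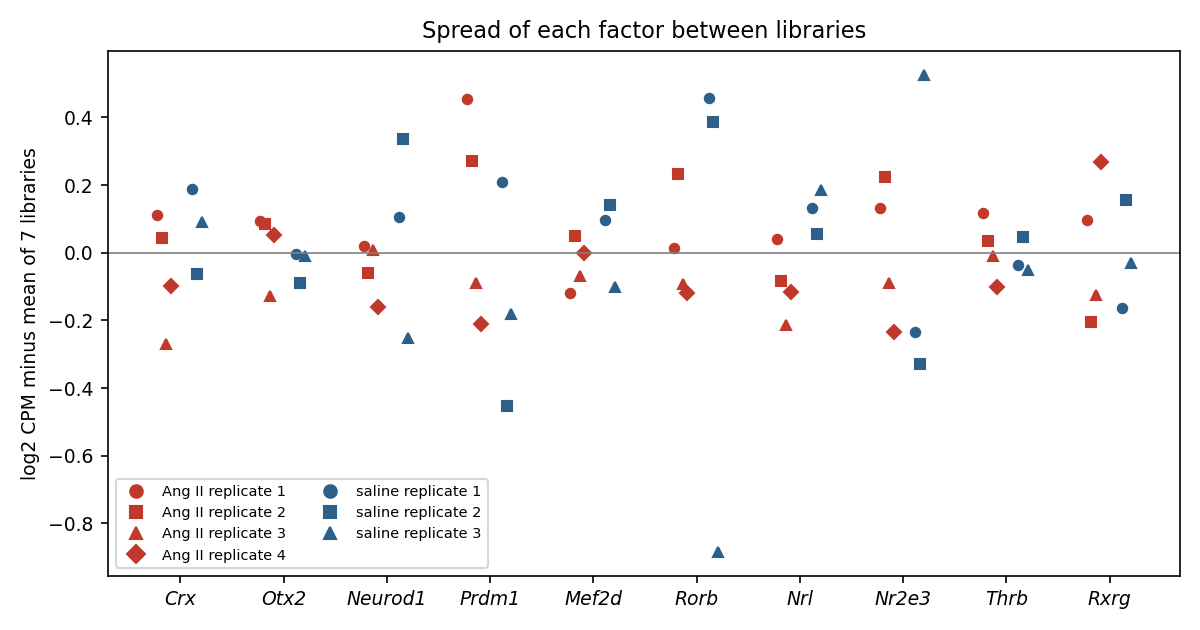
Log2 CPM of each factor minus its mean over the 7 libraries, Ang II in red and saline in blue with a marker shape per replicate number. Rorb, Nr2e3 and Prdm1 spread most within groups, while the points of Otx2 (-0.13 to 0.094) and Thrb (-0.10 to 0.12) keep closest to 0.

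The genes that these factors drive were read from lists. All 18 rod genes lay below 0, with a median log2 fold change of -0.20, and edgeR called 0. At an unadjusted p under 0.05 there were 10 of the 18 on the lower side, against 1.72% of all tested genes, and 6 of the 18 had every Ang II library below every saline library, against 2.73%. The smallest p were those of Pde6g, the inhibitory phosphodiesterase subunit (-0.29 ± 0.09), Rbp3, the retinoid carrier of the space around the outer segments (-0.27 ± 0.10), Rcvrn, the calcium sensor recoverin (-0.31 ± 0.11), and Rom1, a disc rim protein (-0.21 ± 0.09). The summed level of the 18 rod genes was 73427 to 88097 CPM in Ang II and 90204 to 96765 CPM in saline. Nrl thus lay beside the rod list in size, and when libraries were scaled by the rod transcripts themselves Nrl was at -0.01 and Crx at 0.08, while the median of all genes shifted to 0.21. Relative to that shift these values are as in the main comparison.

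Of 13 cone genes 12 lay below 0 (median -0.15), 0 were called, and the cone opsin gene Opn1mw (-0.32 ± 0.16), Pde6c (-0.22 ± 0.11) and the cone transducin gene Gnat2 (-0.25 ± 0.13) were among those of smallest p. The smallest was that of Slc24a2, the cone exchanger gene, on the other side (0.18 ± 0.08). The 2 cone factors Thrb and Rxrg had log2 fold changes of 0.03 each, and whether they differ from the cone genes was not tested. Of 31 tested cofactors and partner regulators 21 lay below 0 (median -0.04) and 0 were called. Nr1d1, a nuclear receptor of the clock that acts with NR2E3, had -0.23 ± 0.10, Samd11 -0.20 ± 0.10, Sall3, a cone factor, -0.35 ± 0.18 and Mef2a 0.14 ± 0.09.

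Factors of progenitors and of other retinal fates had a median of -0.04, with 17 of 26 below 0 and 0 called. Rax, the eye field homeobox gene that photoreceptors keep at a low level, averaged 96.5 ± 7.24 CPM (SD, n = 4) with Ang II. With saline it averaged 117 ± 2.83 CPM (SD, n = 3), which gives a log2 fold change of -0.27 ± 0.09 (edgeR adjusted p = 0.982). The bipolar markers, whose cells also express Otx2, had a median of -0.11 with 13 of 14 below 0. The remaining cell types gave medians of -0.03 (amacrine), 0.03 (horizontal), -0.01 (ganglion), 0.03 (Müller glia), 0.04 (endothelial) and -0.02 (lymphoid, 4 tested), with 0 calls by edgeR. Clock genes had a median of -0.07 and immediate early genes of -0.11. In log2 fold change, the genes of smallest p included Gng13 (-0.38 ± 0.16) among bipolar, Tyr (1.90 ± 0.34) and Mitf (0.51 ± 0.14) among pigment epithelium and Calb2 (-0.15 ± 0.10) and Slc17a8 (-0.21 ± 0.14) among amacrine markers. They were Gja10 (-0.31 ± 0.25) and Calb1 (-0.15 ± 0.16) among horizontal, Isl2 (-0.30 ± 0.16) and Pou4f3 (-0.30 ± 0.24) among ganglion and Rdh10 (0.78 ± 0.19) and Clu (0.31 ± 0.12) among Müller markers. For endothelial markers they were Slco1a4 (0.43 ± 0.15) and Tek (0.25 ± 0.21), for lymphoid markers Xbp1 (-0.23 ± 0.15) and Jchain (0.14 ± 0.21), for immediate early genes Ier2 (-0.96 ± 0.28) and Egr1 (-3.19 ± 0.90) and for clock genes Nr1d1 (-0.23 ± 0.10) and Per2 (-0.38 ± 0.18).

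**Figure D5:**
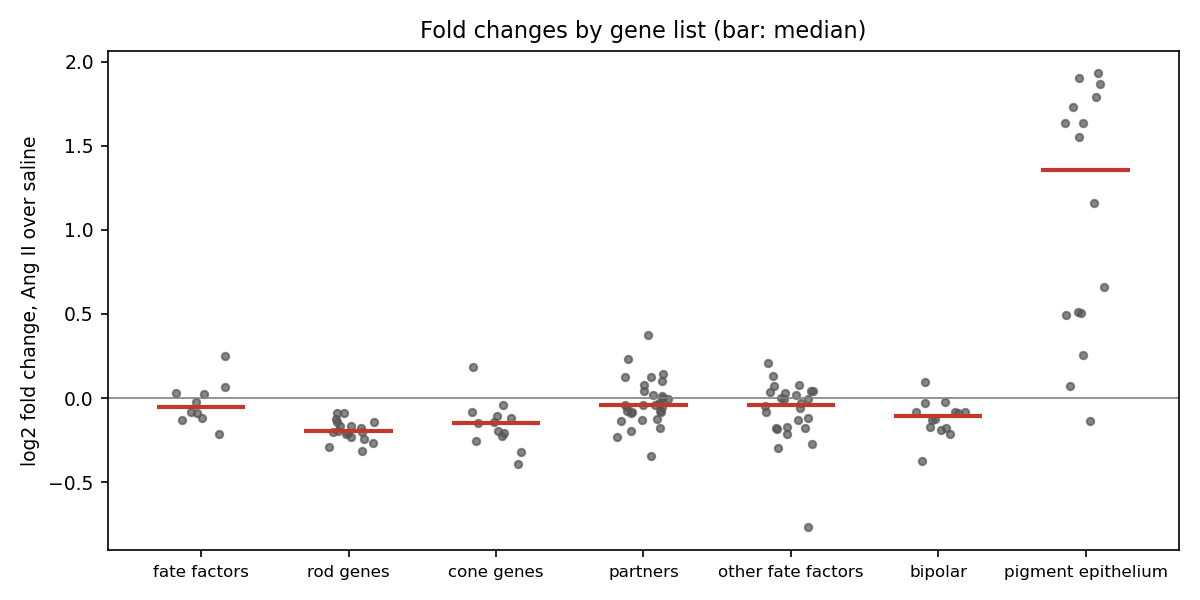
Log2 fold change, Ang II over saline, of each tested gene by list, with the median as a red bar. The 10 fate factors lie around -0.05 and all 18 rod genes lie below 0, while 15 of 16 pigment epithelium markers lie above 0.

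The library protocol in the labels does not mark strand, so genes that overlap a factor can share its reads. Crx, Nrl, Rorb, Prdm1 and Rxrg have 0 overlapping genes in the table. Otx2 is overlapped on the other strand by the long noncoding RNA gene Otx2os1, whose counts were 454, 451, 397 and 377 in Ang II and 374, 261 and 366 in saline, 9.74% of those of Otx2, and on its own strand by Gm49154 (1.48%). Neurod1 lies inside the span of Cerkl, a kinase-like gene of photoreceptors, on the same strand (7.49% of the counts of Neurod1), and opposite Gm26755. Nr2e3 is overlapped by Gm7616 and Gm15507, which had 0.560% and 0.477% of its counts. How many reads these genes share with Nr2e3 was not tested. Gm48321 and Gm48320 within Thrb had a mean of 1.71 and 1.14 counts per library, and 1700113A16Rik at Mef2d had 0.0984% of the counts of Mef2d.

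On mm10, the deposited table places Crx (ENSMUSG00000041578) on chromosome 7 from 15865947 to 15879968, Otx2 (ENSMUSG00000021848) on chromosome 14 from 48657677 to 48673819, Neurod1 (ENSMUSG00000034701) on chromosome 2 from 79452521 to 79456751, Prdm1 (ENSMUSG00000038151) on chromosome 10 from 44437177 to 44528501, Mef2d (ENSMUSG00000001419) on chromosome 3 from 88142372 to 88172086. It places Rorb (ENSMUSG00000036192) on chromosome 19 from 18930605 to 19111196, Nrl (ENSMUSG00000040632) on chromosome 14 from 55518978 to 55524981, Nr2e3 (ENSMUSG00000032292) on chromosome 9 from 59942771 to 59960659, Thrb (ENSMUSG00000021779) on chromosome 14 from 17660261 to 18038090, Rxrg (ENSMUSG00000015843) on chromosome 1 from 167598384 to 167639623. All 10 have these coordinates in GENCODE M21 too. GENCODE lists more than 1 protein-coding transcript for each except Neurod1 and Nr2e3, and the gene counts do not tell them apart.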

How the data were processed

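Poly-A RNA of mouse retina was sequenced. The authors deposited raw counts per gene, with no normalization. CASAVA, alignment by HISAT2 (version 2.0.5) to mm10 and counting by featureCounts (version 1.5.0-p3) are named in the submitters' processing notes. Strand setting, annotation release and handling of multi-mapping reads are not given in the sources used here. All 7 library columns matched sample descriptions, and 0 were left over. Groups followed sample titles.

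Testing used edgeR 4.0.16 in R 4.3.3 (quasi-likelihood, robust, two-sided, group as sole term) on the 17078 genes kept by filterByExpr, with TMM scaling and Benjamini-Hochberg adjustment over all of them (threshold 0.05). The SE was obtained by dividing the size of the log2 fold change by the root of F, intervals are 95% from the test's degrees of freedom, and log2 CPM had 2 as prior count. Alternatives were other scalings and filters, DESeq2 1.42.0, limma 3.58.1, a covariate, a replicate block and each library left out.

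The factors, gene lists and naming rule were chosen with earlier results of these data known. The naming rule takes all 10 factors, the 2 genes of smallest p per list with at least 1 CPM (4 for rod, cone and partner lists), overlapping genes of at least 1 count per library, Apoe, and for each factor the nearest factor and the 2 nearest genes by Pearson r. Genes printed beyond it were chosen after their values were seen. Some genes the rule takes are not reported here. The fit was tested on simulated data. Promoter windows are from RefSeq (GRCm38.p6), with all 10 symbols matched.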

Additional observations from a re-analysis of the deposited data

How the results depend on the processing

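In 0 of 16 alternatives was any of the 10 factors called, and the smallest adjusted p was 0.147 (Nrl with limma-voom). Nrl, Otx2 and Prdm1 kept their direction in all 16. The number of genes called was 13 with rod transcript scaling, 98 with no filter, 35 with DESeq2, 114 with limma-voom, 57 with the replicate block and 0 to 117 with a library left out (117 without saline replicate 3). The median of the factors was 0.15 with rod transcript scaling, where the median of all genes was 0.21, and 0.0579 with the pigment epithelium covariate. With rod scaling the direction turned for Crx (0.0810), Neurod1 (0.0788), Mef2d (0.13), Rorb (0.12) and Nr2e3 (0.17), all below that shift of all genes. With the covariate, which largely followed the group, it turned for Neurod1 (0.21), Mef2d (0.0776) and Rorb (0.86). Nr2e3 turned with limma-voom (0.23). With total library size Nr2e3 was at 0.0187, below the median of all genes, which was 0.042 there. Over all tested genes, same-numbered libraries did not deviate together (r = -0.07, -0.02 and 0.05). This does not tell whether a pairing affects some of the genes. The block fit leaves out Ang II replicate 4, and without that library but with no block 0 genes were called. With the replicate block Rorb was at 0.0618, Nr2e3 at 0.11 and Rxrg at -0.0621. Leaving out a library gave ranges of -0.40 to 0.13 for Rorb, -0.18 to 0.31 for Nr2e3, -0.27 (without saline replicate 3) to 0.0143 (without saline replicate 2) for Neurod1, 0.11 to 0.45 for Prdm1, -0.0621 to 0.12 for Rxrg and -0.0106 to 0.0636 for Thrb. The cause of these turns was not tested. With 3 and 4 libraries the data allow any change inside the stated intervals, which are before adjustment and are not limits of detection. In simulated counts, 77 of 100 genes with a log2 fold change of 1 in size were called in the right direction. Those counts were drawn independently for each gene and library, and the planted changes were 1 or 2 in size. They give no rate for changes as small as those of the factors, nor for libraries that stand apart.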
